A study of Mus musculus with 15 samples.

Results

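The 10 genes described here encode calgranulins and other secreted or effector proteins of circulating neutrophils, namely S100a8, S100a9, Retnlg, Wfdc21, Wfdc17, Mmp8, Mmp9, Asprv1, Stfa2l1 and G0s2. They were chosen by name from the 55536 genes counted, and all 10 passed the filter on low counts. RNA of whole blood, all cells together, was sequenced in 15 C57Bl/6 mice, each a male of 10 months. In the tributyltin (TBT) group of 8 animals, the mothers drank water with TBT, an organotin that is a ligand of RXR and PPAR gamma, at 0.5 mg per kg of body weight daily (3.07 µM) until weaning. The mothers of the 7 vehicle animals belonged to the vehicle group, and all 15 animals shared strain, sex and age. The labels note a liver tumor in vehicle 3 alone. They name no litters, so p-values measure the spread between these animals only.

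Neutrophils are the short-lived phagocytes that leave the bone marrow, circulate in blood and carry granules of antimicrobial proteins and proteases. The calgranulins S100a8 and S100a9 pair into calprotectin, a calcium- and zinc-binding complex that makes up much of the neutrophil cytosol and acts outside the cell as an alarm signal. Most granule proteins are made in immature cells in the marrow, whereas cytosolic and secreted effectors are still transcribed in mature cells.

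The 10 genes were not called different between TBT and vehicle blood. Wfdc21, which encodes a small secreted protein with a whey acidic protein domain, had the largest difference, 0.79 on the log2 scale. Retnlg and G0s2 each differed by 0.50, and the other 7 genes differed by 0.20 or less in either direction. The log2 ratio of the 2 calgranulins differed by 0.01 between the groups. The levels of S100a8, S100a9 and Mmp8 were correlated from animal to animal. Mmp9 had Pearson's r of 0.75, 0.74 and 0.74 with these 3, but of these pairs only that with Mmp8 passed the adjusted threshold by ranks. Without TBT 8, an omission chosen after seeing the data, these r were 0.66, 0.64 and 0.65. Within TBT without TBT 8 they were 0.05, -0.17 and 0.19. There S100a8 had r of 0.88 with S100a9 and 0.56 with Mmp8, and S100a9 had 0.40 with Mmp8. The pairs of Mmp9 with Retnlg and Stfa2l1 passed the adjusted threshold by Pearson's r and by ranks. Within TBT without TBT 8 they had r of 0.77 and 0.88. Wfdc17 had a negative median correlation with the other genes, which was positive without TBT 8.

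The calgranulin genes lie near each other on chromosome 3 of GRCm38, 22596 bases apart. S100a8 is at chr3:90668978-90670035 on the plus strand and S100a9 at chr3:90692632-90695721 on the minus strand. Wfdc17 (chr11:83703991-83706268) and Wfdc21 (chr11:83746940-83752642) also lie near each other, 40671 bases apart on the plus strand. Retnlg (chr16:48872621-48874496) and Stfa2l1 (chr16:36156811-36161953) share chromosome 16 at a distance of 12710667 bases. Mmp8 (chr9:7558456-7568485), Mmp9 (chr2:164940780-164955850), Asprv1 (chr6:86628164-86629710) and G0s2 (chr1:193272161-193273217, minus strand) lie apart from the others. G0s2 lies opposite Lamb3 without exon overlap. Stfa2l1 shared 91 of its 370 windows of 50 bases (24.6%) with other genes, among them its near-copy Stfa2, so its counts are uncertain, and the other 9 genes shared none with another gene.

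Promoters of 8 of the 10 genes were found among RefSeq promoters of GRCm38.p6, each running from 250 bases before to 50 bases after the annotated start. Below are those of the 3 genes with the highest Pearson's r among themselves over all 15 libraries (S100a8, S100a9 and Mmp8). That of Wfdc17, whose correlation with theirs was lower, is also given. By ranks the choice was less clear, as S100a9 had rho of 0.871 with S100a8 and 0.786 with Mmp8. Retnlg had rho of 0.793 and 0.882 with the same 2 genes. They lie at chr3:90668821-90669120 (plus strand), chr3:90695672-90695971 (minus strand), chr9:7558179-7558478 (plus strand) and chr11:83703806-83704105 (plus strand). Capitals mark TATAAA, the C/EBP core TTNNGNAA or the PU.1 core GAGGAA on either strand, C/EBP proteins and PU.1 being the factors that drive the neutrophil programme.
S100a8: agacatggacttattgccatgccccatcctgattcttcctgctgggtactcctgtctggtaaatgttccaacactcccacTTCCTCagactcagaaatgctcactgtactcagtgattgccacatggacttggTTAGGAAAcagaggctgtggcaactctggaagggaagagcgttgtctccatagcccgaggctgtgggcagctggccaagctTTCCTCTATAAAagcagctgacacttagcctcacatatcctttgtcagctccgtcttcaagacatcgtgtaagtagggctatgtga
S100a9: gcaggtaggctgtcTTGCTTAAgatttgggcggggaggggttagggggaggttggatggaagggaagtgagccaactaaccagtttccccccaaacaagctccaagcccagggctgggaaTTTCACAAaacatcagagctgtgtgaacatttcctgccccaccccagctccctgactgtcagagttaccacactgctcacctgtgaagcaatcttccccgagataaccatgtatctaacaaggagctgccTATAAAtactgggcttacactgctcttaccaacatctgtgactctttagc
Mmp8: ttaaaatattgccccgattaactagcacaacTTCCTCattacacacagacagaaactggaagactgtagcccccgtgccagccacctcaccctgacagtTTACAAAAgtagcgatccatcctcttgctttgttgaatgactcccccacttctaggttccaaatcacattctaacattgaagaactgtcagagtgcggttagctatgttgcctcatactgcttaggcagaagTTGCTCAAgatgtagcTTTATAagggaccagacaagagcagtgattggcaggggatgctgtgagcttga
Wfdc17: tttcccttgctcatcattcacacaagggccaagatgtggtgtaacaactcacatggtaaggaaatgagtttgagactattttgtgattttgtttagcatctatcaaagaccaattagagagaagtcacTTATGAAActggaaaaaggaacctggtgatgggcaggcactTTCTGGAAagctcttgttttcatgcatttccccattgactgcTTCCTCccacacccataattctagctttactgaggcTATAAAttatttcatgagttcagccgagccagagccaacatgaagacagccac
In S100a8 the TATAAA match began 30 bases before the start and adjoined a PU.1 match on the other strand. In S100a9 a TATAAA match began at the first base after the annotated start. TATAAA was found in 4 of the 8 promoters, against 13.6% of all 32851 promoters of this length. The C/EBP letters were found in 6 of the 8, against 40.7% of all, and the PU.1 letters in 5 of the 8, against 28.3%. A match describes letters in the window and not a bound site. All 3 kinds of match were present in the Wfdc17 promoter as well as in those of S100a8 and Mmp8.

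Levels between genes were compared as CPM (library-scaled counts) per kilobase of exon (CPM per kb) over all 15 libraries. S100a9 stood highest at 239 CPM per kb, rank 89 of 13360 tested genes whose symbol was not shared with another tested gene. S100a8 followed at 96.6 CPM per kb and Retnlg at 67.5. Mmp9, gelatinase B, reached 20.5 CPM per kb. Below these 4 came Stfa2l1 (10.5 CPM per kb), Mmp8 (8.07), Wfdc17 (6.78), Wfdc21 (3.53), Asprv1 (2.20) and G0s2 (1.32, rank 8990). S100a9 exceeded S100a8 in 15 of 15 libraries, and S100a8 exceeded Retnlg in 14. The order of Stfa2l1 over Mmp8, Mmp8 over Wfdc17, Wfdc17 over Wfdc21 and Wfdc21 over Asprv1 held in 12 of 15 libraries each, so these neighbours overlapped.

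The libraries held 6.03 M to 11.99 M gene counts, and haemoglobin genes took 28.7% to 50.8% of them. The 10 genes together took 0.00985% (TBT 8) to 0.0610% (TBT 7) of the counts in TBT libraries, and 0.0209% (vehicle 2) to 0.0642% (vehicle 5) in vehicle libraries. TBT 2 and TBT 8 had the lowest TMM scaling factors (0.404 and 0.528, against 0.736 to 1.58 in the others), so their scaled values stand well above their raw shares. In TBT 2, S100a8 was 69.8 CPM after scaling and 28.1 CPM before it. All further CPM values are on the TMM-scaled library sizes. Neutrophil receptor transcripts were measured in every library. Csf3r, the G-CSF receptor, averaged 247 ± 67.2 CPM in TBT and 238 ± 68.1 CPM in vehicle (SD, n = 8 and 7). Ly6g, the usual surface marker of mouse neutrophils, was under the filter at 1.04 ± 1.05 CPM in TBT and 0.372 ± 0.252 CPM in vehicle. Its highest TBT values were 3.37 CPM in TBT 1 and 1.71 CPM in TBT 7. In whole blood, fewer neutrophils and less RNA per neutrophil cannot be told apart.

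S100a8, the smaller calgranulin chain, had 33.2 CPM at the lowest, 73.2 at the median and 81.7 at the highest in TBT blood, against 48.6, 57.7 and 114 CPM in vehicle blood. In 7 of 8 TBT libraries it lay above the vehicle median, but the vehicle animal with the highest level exceeded them all and the groups overlapped. The means were 68.7 ± 15.2 CPM in TBT and 65.1 ± 22.3 CPM in vehicle (SD, n = 8 and 7), a log2 fold change of 0.08 (SE 0.19, 95% interval -0.32 to 0.48), which was 0.02 without vehicle 3 and 0.26 without vehicle 5. This did not pass the threshold in edgeR's quasi-likelihood test with Benjamini-Hochberg adjustment over all 13364 tested genes (adjusted p = 0.986). S100a9, the partner chain, had 62.1, 137 and 149 CPM (lowest, median, highest) in TBT against 71.0, 112 and 236 CPM in vehicle. Here 6 of 8 TBT libraries lay above the vehicle median, with TBT 8 far below the rest of its group and vehicle 5 far above the rest of its own. The log2 fold change was 0.04 (SE 0.23, 95% interval -0.44 to 0.51; edgeR adjusted p = 0.996), and it ran from -0.06 without vehicle 2 to 0.26 without vehicle 5, being negative also without TBT 4 (-0.02), TBT 5 (-0.01), vehicle 3 (-0.03) or vehicle 7 (-0.01).

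**Figure D1:**
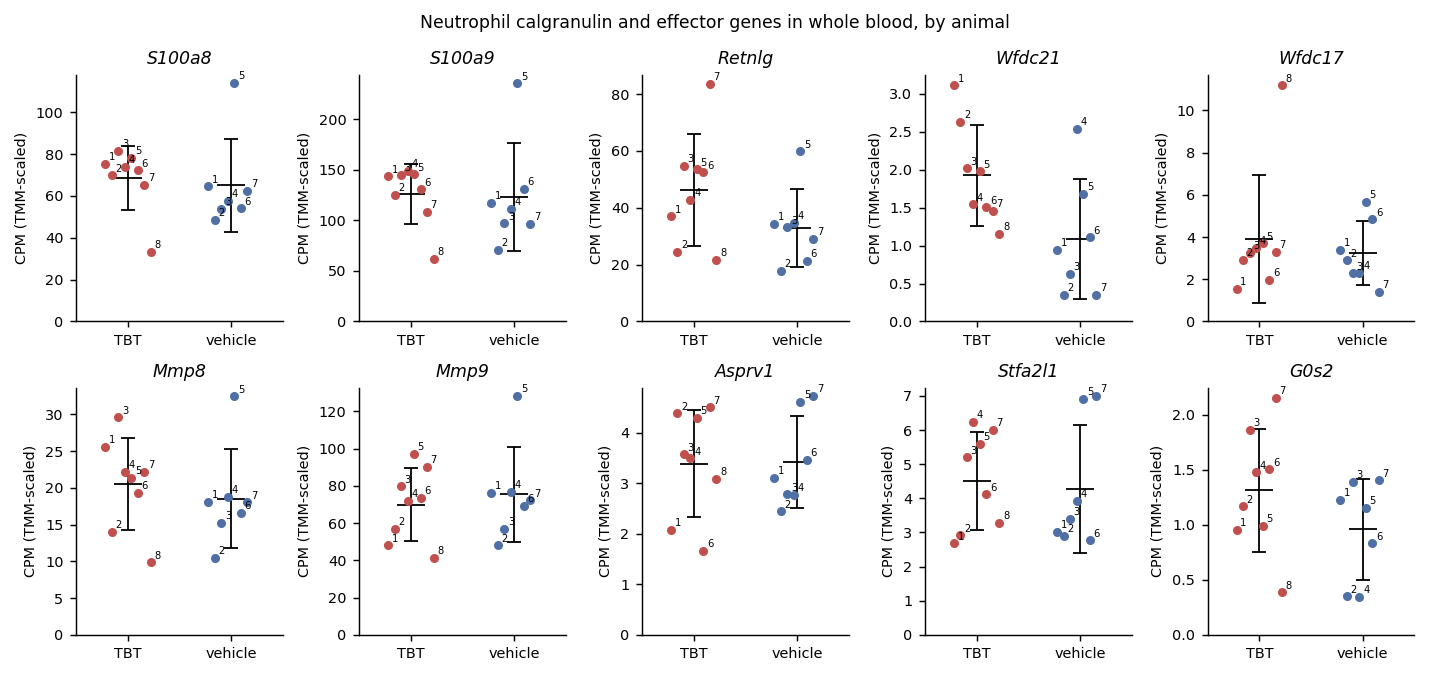
TMM-scaled CPM of each of the 10 genes in every animal, on axes from 0, with TBT on the left and vehicle on the right of each panel; points are animals, with the mean and SD of each group in black. The groups overlap for all 10 genes.

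The ratio of S100a8 to S100a9 within a library does not depend on scaling. On the log2 scale it averaged -0.87 ± 0.08 in TBT and -0.88 ± 0.25 in vehicle (SD, n = 8 and 7), running from -1.01 to -0.73 in TBT and from -1.28 (vehicle 6) to -0.55 (vehicle 2) in vehicle. The TBT values fell inside the vehicle range. The means differed by 0.01 (two-sided exact permutation test over 6435 splits, p = 0.943; the smallest p possible is 0.000155). Leaving out single libraries moved this difference between -0.06 (without vehicle 6) and 0.06 (without vehicle 2). It was negative also without TBT 7 (-0.01), vehicle 4 (-0.0047) or vehicle 5 (-0.02).

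Among the secreted proteins, Retnlg encodes resistin-like gamma, a cysteine-rich protein of the resistin family found in mouse marrow and blood neutrophils. It had 21.6, 47.7 and 83.6 CPM (lowest, median, highest) in TBT against 17.8, 33.2 and 59.9 CPM in vehicle. TBT 7 was the highest of all libraries, and 6 of 8 TBT libraries exceeded the vehicle median. The means were 46.3 ± 19.8 CPM in TBT and 32.9 ± 13.6 CPM in vehicle (SD, n = 8 and 7), a log2 fold change of 0.50 (SE 0.29, 95% interval -0.11 to 1.11; edgeR adjusted p = 0.852). It was 0.31 without TBT 7 and 0.70 without vehicle 5.

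Wfdc21 had 1.16, 1.76 and 3.11 CPM (lowest, median, highest) in TBT against 0.348, 0.941 and 2.54 CPM in vehicle. Each of the 8 TBT libraries exceeded the vehicle median, although vehicle 4 and vehicle 5 lay within the TBT range. These values rest on 2 to 36 counts per library. The means were 1.93 ± 0.660 CPM in TBT and 1.09 ± 0.795 CPM in vehicle (SD, n = 8 and 7), with a log2 fold change of 0.79 (SE 0.37, 95% interval 0.02 to 1.56). The edgeR p was 0.0454 before adjustment and 0.777 after it. Without single libraries the log2 fold change was between 0.64 (without vehicle 2) and 1.13 (without vehicle 4).

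Wfdc17, a second small secreted protein of the same domain family, had 1.56, 3.28 and 11.2 CPM (lowest, median, highest) in TBT against 1.40, 2.90 and 5.68 CPM in vehicle. TBT 8 alone stood above every vehicle library. The log2 fold change was 0.20 (SE 0.37, 95% interval -0.59 to 0.98; edgeR adjusted p = 0.979) with all libraries and -0.20 without TBT 8. TBT 8 was the highest TBT library for Wfdc17 and the lowest for 7 of the 10 genes, and it also had the highest TBT level of Slpi, a related antiprotease (46.5 CPM, against a TBT mean of 12.7 and a vehicle mean of 16.8 CPM).

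The granule proteases come next. Mmp8, neutrophil collagenase, had 9.84, 21.8 and 29.6 CPM (lowest, median, highest) in TBT against 10.5, 18.1 and 32.5 CPM in vehicle. In log2 terms the fold change was 0.16 (SE 0.23, 95% interval -0.32 to 0.64; edgeR adjusted p = 0.973), 0.06 without vehicle 2 and 0.34 without vehicle 5. Mmp9, which is stored in gelatinase granules and degrades basement membrane collagen, had 41.3, 72.8 and 97.2 CPM in TBT against 48.1, 72.2 and 128 CPM in vehicle. Its medians were nearly equal and 4 of 8 TBT libraries lay above the vehicle median. Its log2 fold change was -0.11 (SE 0.21, 95% interval -0.54 to 0.32; edgeR adjusted p = 0.979), and 0.06 without vehicle 5.

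The log2 ratio of Mmp8 to Mmp9 averaged -1.77 ± 0.42 in TBT and -2.03 ± 0.09 in vehicle (SD, n = 8 and 7). The vehicle libraries lay close together, from -2.18 to -1.89, whereas TBT libraries ran from -2.18 to -0.91, with TBT 1 and TBT 3 (-1.43) and TBT 4 (-1.69) above the vehicle range. The difference of means was 0.25 (two-sided exact permutation test, p = 0.156) and 0.13 without TBT 1. TBT 1 was also the library with the highest Wfdc21, the lowest Stfa2l1 and, among TBT libraries, the lowest Wfdc17, and it had a score of 2.13 for the immature granule genes (mean centred log2 CPM), against 0.49 at most in the other TBT libraries and 0.09 at most in vehicle libraries. The part of the immature granule genes in the ratio was not tested.

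**Figure D2:**
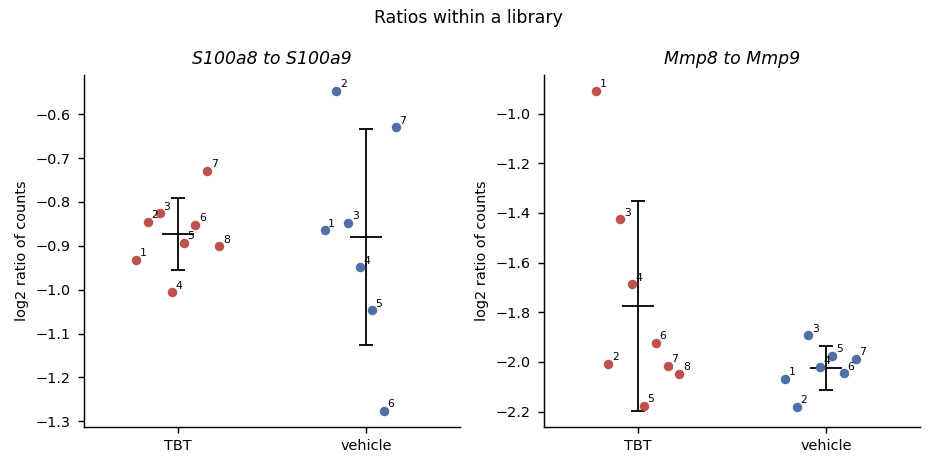
Log2 ratio of S100a8 to S100a9 and of Mmp8 to Mmp9 in each library, TBT left and vehicle right; points are libraries with their replicate numbers, with the mean and SD of each group in black. The calgranulin ratio is close in both groups (-0.87 in TBT and -0.88 in vehicle), and TBT 1 stands highest for the protease ratio at -0.91.

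Asprv1, an aspartic protease first known from skin, had 1.66, 3.53 and 4.50 CPM (lowest, median, highest) in TBT against 2.44, 3.11 and 4.73 CPM in vehicle. Its log2 fold change was -0.02 (SE 0.23, 95% interval -0.50 to 0.47; edgeR adjusted p = 0.997), and its sign changed without TBT 1 (0.07), TBT 6 (0.07), vehicle 5 (0.07) or vehicle 7 (0.07). Stfa2l1, of the stefin A family of cysteine protease inhibitors, had 2.68, 4.66 and 6.24 CPM in TBT against 2.77, 3.40 and 7.01 CPM in vehicle. Its log2 fold change was 0.12 (SE 0.25, 95% interval -0.41 to 0.65; edgeR adjusted p = 0.982), 0.02 without TBT 4 and 0.27 without vehicle 5. G0s2, an inhibitor of the triglyceride lipase Pnpla2, had 0.386, 1.32 and 2.15 CPM in TBT against 0.346, 1.15 and 1.40 CPM in vehicle. It rests on 2 to 34 counts per library. Its log2 fold change was 0.50 (SE 0.35, 95% interval -0.24 to 1.23; edgeR adjusted p = 0.886) and 0.34 without TBT 7.

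Across the 10 genes, 0 were called different, as were 0 (0%) of all 13364 tested genes in edgeR's test. DESeq2 called 13 genes and limma-voom 19, none of them among the 10. At an unadjusted p under 0.05, 1 of the 10 (Wfdc21) passed, against 846 (6.33%) of tested genes, which is near that background. The log2 fold change was above 0 for 8 of the 10, against 59.4% of tested genes, and the median was 0.14 over the 10 genes against 0.05 over all. In 9 of the 10 genes the 95% interval of the log2 fold change included 0. With 8 and 7 animals the intervals reached up to 1.56 on the log2 scale for Wfdc21 and 0.48 for S100a8.

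**Figure D3:**
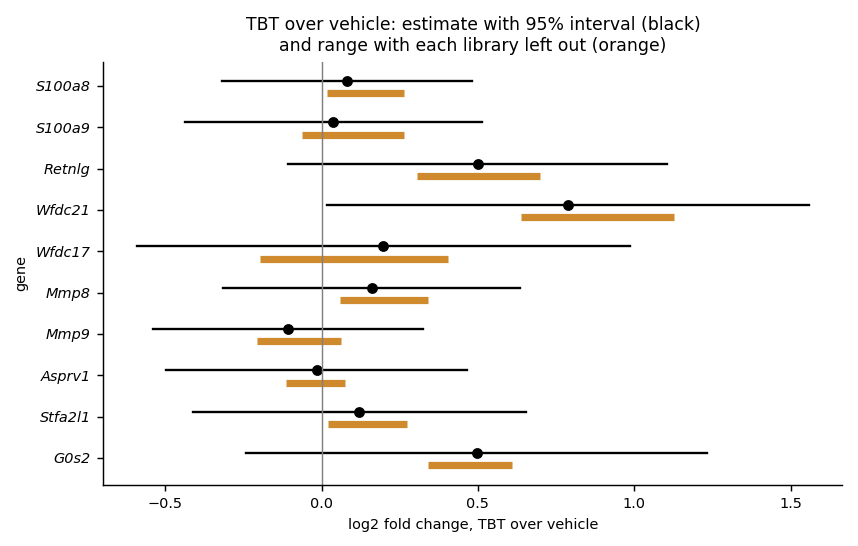
Log2 fold change of TBT over vehicle for each of the 10 genes, with black bars for the 95% interval of the edgeR fit and orange bars for the range when each library is left out in turn. The interval excludes 0 for Wfdc21 alone, from 0.02 to 1.56, without adjustment for the number of genes tested.

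The levels of several of the genes moved together from animal to animal. Over 15 libraries and 45 pairs, the median Pearson correlation of log2 CPM was 0.491. S100a8 and S100a9 had r = 0.931 (permutation p = 1e-05, the smallest that 100000 permutations give, adjusted 0.000225) and Spearman rho = 0.871 (permutation p = 8e-05, adjusted 0.00135). The pair kept r = 0.820 without the 2 libraries farthest from the median of S100a8, and had r = 0.981 within TBT and 0.898 within vehicle. S100a8 and Mmp8 had r = 0.883 (permutation p = 1e-05, adjusted 0.000225) and rho = 0.879 (permutation p = 9e-05, adjusted 0.00135), with r = 0.795 without the 2 farthest libraries. Retnlg and Mmp8 had r = 0.800 (permutation p adjusted to 0.00371) and rho = 0.882 (adjusted 0.00135), with r = 0.816 without the 2 farthest libraries. Of the 45 pairs, 12 passed the adjusted Pearson threshold and 8 passed both adjusted thresholds. The share passing among pairs of all tested genes was not computed, so these counts have no background beside them. Libraries share their depth and scaling between genes, so part of such a correlation can be common to all genes.

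Over all 15 libraries Wfdc17 had a median r of -0.096 with the other 9 genes, from -0.29 to 0.29, and 6 of the 8 negative pairs held it. The negative values rested on TBT 8, where Wfdc17 was high and most of the other genes were low. Without TBT 8, an omission chosen after seeing the data, its median r was 0.213 and 0 of its 9 pairs were negative, with 0.564 for Mmp9, 0.485 for S100a9 and 0.328 for S100a8. Without TBT 8, S100a8 and S100a9 had r = 0.903, and the median over all 45 pairs was 0.481. S100a8 and Wfdc17 had r = -0.83 within TBT, 0.046 within TBT without TBT 8, and 0.489 within vehicle.

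**Figure D4:**
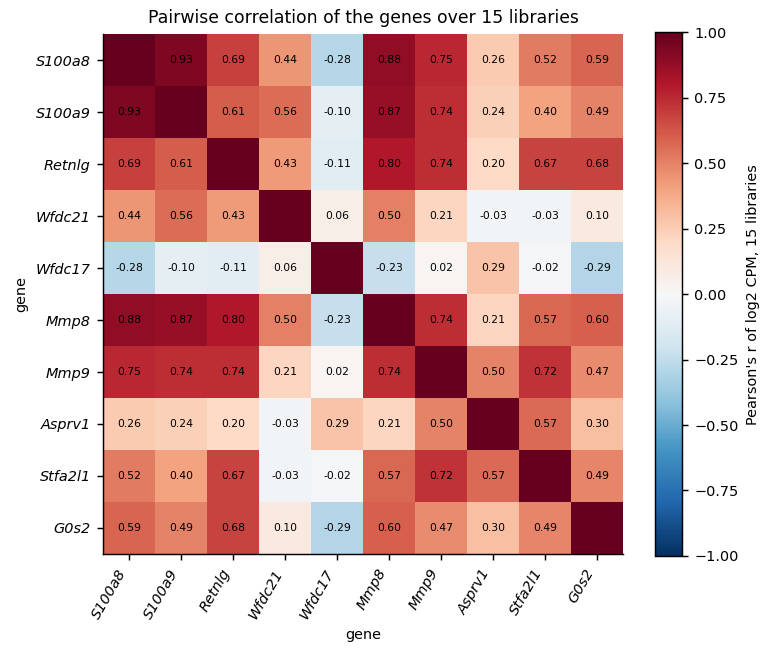
Pearson correlation of log2 CPM over 15 libraries for the 45 pairs of the 10 genes. S100a8, S100a9 and Mmp8 show the highest values (0.874 to 0.931), and Wfdc17 has a median of -0.096, which is 0.213 without TBT 8.

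**Figure D5:**
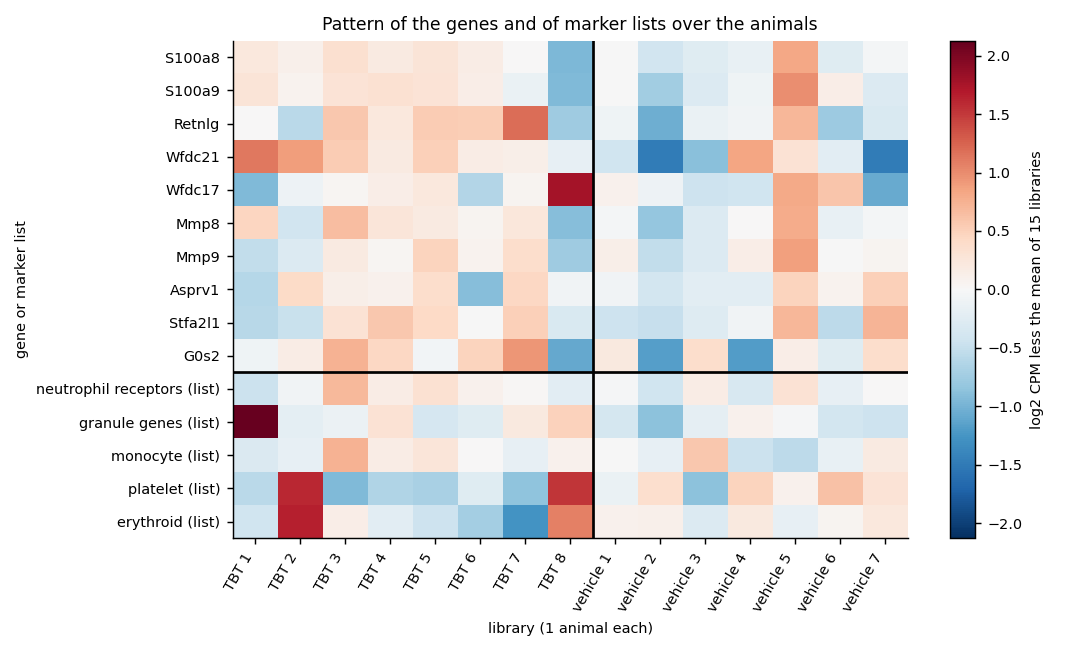
Log2 CPM of the 10 genes, centred on each gene's mean, in each library, with TBT libraries left of vehicle libraries; the lower rows show the neutrophil receptor, immature granule, monocyte, platelet and erythroid list scores on the same log2 scale. TBT 8 is low and vehicle 5 is high for most of the 10 genes.

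Several extremes fell in the same libraries. TBT 8, with a platelet score of 1.52, was the lowest TBT library for S100a8, S100a9, Retnlg, Wfdc21, Mmp8, Mmp9 and G0s2. TBT 7 was the highest TBT library for Retnlg, Asprv1 and G0s2. Vehicle 5 was the highest vehicle library for 6 of the 10 genes, and vehicle 2 the lowest for 7. Vehicle 3, with the liver tumor label, lay within the range of the other 6 vehicle libraries for all 10 genes, and below their median for 8.

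Whether the 10 genes followed the amount of neutrophil RNA was set beside a score of 25 neutrophil receptor genes. Pearson's r with this score ran from 0.106 for Wfdc21 to 0.680 for G0s2. For G0s2 the permutation p adjusted over 30 relations was 0.102, with rho = 0.661 (adjusted 0.0791) and r = 0.733 without the 2 farthest libraries, and 0 of the 10 genes passed the adjusted threshold. Relative to the score, the differences between TBT and vehicle on the log2 scale were 0.77 for Wfdc21, 0.33 for Retnlg and 0.27 for G0s2, against -0.04 for S100a8, -0.05 for S100a9 and -0.24 for Mmp9. The spread within groups was smaller relative to the score for 8 of the 10 genes. By likeness of pattern, the gene closest to Mmp9 was Sorl1 (r = 0.926 over 15 libraries, after subtraction of group means), followed by the interleukin 1 family gene Il1f9 (0.905) and the chemokine receptor Cxcr2 (0.901). Sorl1 was also closest to Retnlg (0.926), Rab11fip4 to S100a9 (0.933) and Sfi1 to S100a8 (0.931). Wfdc17 was closest to Dlg1 (0.820) and then Slpi (0.807), both of which include TBT 8.

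Lists of related genes were set beside the 10, and 0 genes in any of them were called. Of 25 tested neutrophil receptor genes, 23 were above 0 in log2 fold change (median 0.115), with Itgam at 0.31 and Tlr2 at 0.36. Cxcr2 was the lowest of them at -0.15, averaging 63.8 CPM in TBT and 70.9 CPM in vehicle. Of 33 tested other neutrophil effector genes, 22 were positive (median 0.08). Anxa1, an anti-inflammatory annexin, averaged 38.9 CPM in TBT and 29.6 CPM in vehicle, a log2 fold change of 0.40 (edgeR adjusted p = 0.708). Of the 7 tested immature granule genes out of 16 listed, 5 were positive (median 0.62), and their listed genes summed to 59.3 to 352 CPM in TBT and 59.4 to 83.4 CPM in vehicle. Ltf (lactoferrin) averaged 8.88 ± 20.7 CPM in TBT and 0.801 ± 0.538 CPM in vehicle (SD, n = 8 and 7), with TBT 1 at 60.1 CPM. Chil3, a chitinase-like lectin, averaged 26.2 ± 11.03 CPM in TBT and 14.4 ± 6.96 CPM in vehicle (log2 fold change 0.88, edgeR adjusted p = 0.725).

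Of 7 other tested genes with S100 names, of which S100pbp encodes a binding partner and not an S100 protein, 3 lay above 0 (median -0.03), and S100a10 averaged 119 CPM in TBT and 117 CPM in vehicle. Of the 10 genes for receptors and signalling partners of calgranulins, 8 were positive (median 0.18), and the adaptor Myd88 had the smallest p, at 22.5 CPM in TBT and 18.2 CPM in vehicle (log2 fold change 0.31, edgeR adjusted p = 0.745). Among partners of the proteases, of G0s2 and of the stefin Stfa2l1 (cathepsins), 9 of 11 tested were positive (median 0.17). The lipase coactivator Abhd5 was at 0.58 and the lipid droplet protein Plin2 at 0.42. Of 12 tested neutrophil transcription factors, 6 were positive (median 0.00), Stat3 at 0.11 and Mxd1 at 0.25. Of 6 tested paralogues of the 10 genes, 4 were positive (median 0.09).

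Markers of other blood cells and of liver moved between libraries. The monocyte list was positive in 23 of 24 genes (median 0.19), and the B cell list in 1 of 19 (median -0.22). The platelet list was positive in 19 of 23 and the erythroid list in 22 of 24, with TBT 2 and TBT 8 highest for both scores. The mean scores went the other way, with TBT minus vehicle at -0.22 for the platelet list and -0.06 for the erythroid list. T and NK cell genes were positive in 15 of 23 (median 0.04) and eosinophil and basophil genes in 2 of 7 (median -0.11). The sums over platelet genes ran from 5996 to 35520 CPM in TBT and from 6018 to 17100 CPM in vehicle. The sum over hepatocyte genes ran from 1.77 to 602 CPM in TBT and from 4.42 to 985 CPM in vehicle, and 0 of 9 lay above 0 (median log2 fold change -0.50). Their part in the levels of the 10 genes was not tested.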

How the data were processed

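Whole-blood RNA of 8 TBT and 7 vehicle mice was sequenced. The labels' protocols name RNeasy isolation, a DNase step and the TruSeq Stranded Total RNA kit. Per the submitters' processing notes, the authors used Trim Galore, HISAT2, featureCounts and the build mm10, and the deposited table holds whole-number counts per gene that were not normalized. Tool versions and whether counting used strand were not given in the sources used here, so reads of overlapping genes on opposite strands may not have been told apart.

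All 55536 gene identifiers matched GENCODE release M21 (GRCm38). Genes passing filterByExpr by group (13364) were fitted with edgeR 4.0.16 (R 4.3.3) after TMM scaling, robust quasi-likelihood fits, no covariate and Benjamini-Hochberg adjustment at 0.05. CPM values are on TMM-scaled library sizes. Log2 CPM, list scores and correlations used a prior count of 2. List scores are means of log2 CPM centred on each gene's mean. Correlation p-values came from 100000 permutations, adjusted over 45 pairs or 30 relations. Ratios were compared by exact permutation. Per-kilobase levels used the union of exons. Likeness was Pearson's r over 15 libraries after subtraction of group means, among tested genes with at least 5 CPM on average. Alternatives used DESeq2 1.42.0, limma 3.58.1 (voom with sample quality weights), other scalings and filters, a replicate block and omission of libraries. The edgeR steps were tested on simulated data.

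Named genes were the 10 genes, the 2 members with the smallest p and the most abundant member of each list, and the 3 genes most alike to each of the 10. Not every gene that this rule names is reported here. Defining markers of granulocytes (Csf3r, Cxcr2, Ly6g) are given besides. The 10 genes, the lists and the rules were chosen with earlier results of these data known. Library totals of 6.03 M to 11.99 M counts leave Wfdc21 and G0s2 with 2 counts in the lowest library.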

Additional observations from a re-analysis of the deposited data

Results flagged for a closer look

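Of 24 sets of values (10 genes and 2 ratios, in each group), 8 held an animal far from its group. The gap was one that normally distributed values give in about 1 set in 20, and CPM values need not be so distributed. How many of all tested genes held such an animal was not counted. Since the genes move together, these sets are not independent. In TBT 8, S100a8 was 33.2 CPM (the next TBT value was 65.3) and S100a9 was 62.1 CPM (next 108.3), both lower than in the other TBT animals, while Wfdc17 was higher at 11.2 CPM (next 3.71). In vehicle 5, all values that stood apart were high: S100a8 was 114 CPM (the next vehicle value was 64.6), S100a9 was 236 CPM (next 131.5), Retnlg was 59.9 CPM (next 34.6), Mmp8 was 32.5 CPM (next 18.8) and Mmp9 was 128 CPM (next 77.0). TBT 8 also had a low TMM factor (0.528) and a platelet score of 1.52, whose part in these values was not tested. Vehicle 5 had a TMM factor of 1.09, a neutrophil receptor score of 0.30 and a monocyte score of -0.56. It had the highest Csf3r (376 CPM) and Cxcr2 (120.7 CPM) of all 15 libraries. In TBT 8 these were 155 and 35.7 CPM, and only TBT 1 was lower. Itgam went the other way, at 25.5 CPM in vehicle 5 and 63.3 CPM in TBT 8. The part of the amount of neutrophil RNA in these values was not tested.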

How the results depend on the processing

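Each of the 10 log2 fold changes was recomputed under 23 alternatives, and 0 of the 10 genes passed the adjusted threshold in any. Over all genes 0 were called, against 2 without a filter on low counts, 13 with DESeq2, 19 with limma-voom and 7 without TBT 2, TBT 8 and vehicle 6. RLE, upper-quartile scaling, omission of haemoglobin genes, the replicate block and leaving out any single animal gave 0. S100a8, Retnlg, Wfdc21, Mmp8, Stfa2l1 and G0s2 kept a positive log2 fold change in all 23.

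Direction changed for the others. The log2 fold change of Wfdc17 was -0.11 with limma-voom, -0.15 with the replicate block, -0.083 without the 3 libraries, and -0.20 to 0.40 with single animals left out. The replicate block and the omission of 3 libraries both leave out TBT 8, and omitting TBT 8 alone gave -0.20. The log2 fold change of Mmp9 was 0.040 with limma-voom, 0.0020 without the 3 libraries, and -0.21 to 0.061 with single animals left out. Single omissions gave -0.063 to 0.26 for S100a9 and -0.12 to 0.074 for Asprv1. The S100a8 to S100a9 ratio difference was -0.059 without the 3 libraries and -0.059 to 0.063 with single omissions. The causes were not tested.

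Whether replicate numbers pair the samples was not settled. Of 7 same-numbered pairs, 2 had a correlation of deviations over 0.1, and the values ran from -0.23 (number 4) to 0.51 (number 3). Differently numbered pairs were not compared. The replicate block, over the 7 numbers in both groups, called 0 genes, as the fit without it did. Counts of 2 to 36 limit Wfdc21 and G0s2.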

Other observations

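Among the immature granule markers, several were highest in TBT 1. Ngp, a cathelicidin-like granule protein of marrow neutrophils, reached 158 CPM, Camp (cathelicidin) 8.47 CPM and Mpo (myeloperoxidase) 5.10 CPM in that library, against vehicle means of 2.49, 0.101 and 0.0234 CPM. In the other TBT libraries Ngp, Camp and Mpo reached at most 5.98, 0.742 and 0.0671 CPM. Elane (neutrophil elastase) averaged 0.130 CPM in TBT, all of it from TBT 1 (1.04 CPM), and 0.0885 CPM in vehicle. S100a8 and S100a9 were 75.2 and 144 CPM in TBT 1, inside the range of the other TBT animals, and Mmp8 was 25.6 CPM.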
